A study of Homo sapiens with 8 samples.

Results

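The nuclear genes for subunits of the mitochondrial respiratory chain were taken from the table of all genes by their symbols, as NDUFA, NDUFB, NDUFC, NDUFS or NDUFV followed by a number, NDUFAB1, CYC1, and every symbol starting with UQCR, COX4I, COX5, COX6, COX7, COX8, ATP5F1, ATP5M or ATP5P. This gave 82 of 18164 listed genes, of which 37 belong to complex I, 10 to complex III, 16 to complex IV and 19 to complex V. NDUFA4 was placed in complex IV, where its protein is now known to sit, although its name is that of a complex I gene. Of the 82 genes, 76 passed the filter on low values described below and were tested.

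RNA was sequenced from 8 whole tumors of HCC1937, an established human triple-negative breast cancer cell line, grown in a mammary fat pad from 1000000 injected cells. The hosts were NCG mice, which lack functional Prkdc and Il2rg and so have no mature lymphocytes. The NMN group (4 tumors) came from mice given 500 mg/kg/day of nicotinamide mononucleotide, from which cells make NAD+, and the Vehicle group (4 tumors) from mice given vehicle. Treatment began at tumor volumes of 100 to 150 mm3, and every tumor shares the line, the strain and the site. The labels do not say that each tumor came from its own mouse, so the spread behind each p-value is that among these 8 tumors, which may be in part technical. In bulk tumors, fewer cells of a type and less RNA per cell cannot be told apart.

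The respiratory chain passes electrons from NADH through complex I, coenzyme Q, complex III, cytochrome c and complex IV to oxygen, and complex V, the ATP synthase, uses the resulting proton gradient to make ATP. Complex I returns NADH to NAD+, which ties the chain to the NAD pool that NMN feeds. Each complex except complex II joins subunits of the nuclear genome with subunits of the mitochondrial genome. The mitochondrially encoded subunits are not analysed here. Several complex IV subunits exist as tissue or oxygen-dependent isoforms, among them COX4I2 in place of COX4I1 and the heart and muscle form COX6A2 in place of COX6A1.

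Promoter windows were read from RefSeq (GRCh38.p14) as the 250 bases before an annotated start, and 63 of the 76 tested genes had one. They are shown for pairs of paralogs that stood at very different levels or differed in how far they varied between tumors, and for one gene holding both motifs below. COX6A1 (chr12:120437863-120438112, plus strand) stood at 1276 to 1521 TPM in the 8 tumors, where TPM is a share of all transcripts, corrected for length and scaled to sum to 1000000 in each tumor, and COX6A2 (chr16:31428361-31428610, minus strand) was listed at 0 in 7 of them. Capitals mark the ETS core CGGAAG on either strand in COX6A1 and the E-box CANNTG in COX6A2.
COX6A1: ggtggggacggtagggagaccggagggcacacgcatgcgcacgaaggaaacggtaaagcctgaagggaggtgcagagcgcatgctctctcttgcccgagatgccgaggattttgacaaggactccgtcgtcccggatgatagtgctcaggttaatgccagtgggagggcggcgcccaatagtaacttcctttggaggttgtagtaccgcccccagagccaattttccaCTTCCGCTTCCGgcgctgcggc
COX6A2: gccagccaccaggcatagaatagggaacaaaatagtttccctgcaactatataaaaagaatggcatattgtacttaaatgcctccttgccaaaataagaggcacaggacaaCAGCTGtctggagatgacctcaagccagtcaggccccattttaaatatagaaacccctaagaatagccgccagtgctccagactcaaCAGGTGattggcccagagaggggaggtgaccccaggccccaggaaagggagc
The COX6A1 window held 2 ETS cores and 0 E-boxes, and the COX6A2 window 0 ETS cores and 2 E-boxes. ATP5F1C, the gamma subunit of the central stalk of ATP synthase (chr10:7787927-7788176, plus strand), held 1 match to the NRF1 motif (GCGCA, any 1 base, then GCGC) and 1 ETS core, both in capitals.
ATP5F1C: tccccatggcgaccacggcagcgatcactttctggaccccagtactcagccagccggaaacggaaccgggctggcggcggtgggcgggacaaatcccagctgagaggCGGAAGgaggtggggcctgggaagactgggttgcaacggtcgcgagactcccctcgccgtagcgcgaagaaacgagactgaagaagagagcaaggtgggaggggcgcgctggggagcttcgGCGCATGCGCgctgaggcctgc
NDUFA4 (chr7:10940154-10940403, minus strand) and its paralog NDUFA4L2 (chr12:57240763-57241012, minus strand, the first of 2 annotated starts), which is not among the 82 genes, are shown with the hypoxia response core, ACGTG or GCGTG on either strand, in capitals. The NDUFA4 window held 0 of these and the NDUFA4L2 window 2.
NDUFA4: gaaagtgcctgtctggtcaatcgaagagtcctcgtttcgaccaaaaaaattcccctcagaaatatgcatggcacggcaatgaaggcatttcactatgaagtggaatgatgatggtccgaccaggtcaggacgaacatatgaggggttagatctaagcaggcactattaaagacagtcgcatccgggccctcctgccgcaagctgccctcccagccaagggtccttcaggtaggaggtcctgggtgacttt
NDUFA4L2: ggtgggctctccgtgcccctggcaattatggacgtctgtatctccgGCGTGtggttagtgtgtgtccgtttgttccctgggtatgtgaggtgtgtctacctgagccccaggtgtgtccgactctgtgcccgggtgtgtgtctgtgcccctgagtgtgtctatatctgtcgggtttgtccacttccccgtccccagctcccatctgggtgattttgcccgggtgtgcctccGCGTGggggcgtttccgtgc
A match is a run of letters, not a bound site.

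Over the 63 tested subunit genes with a window, the NRF1 motif, the site of a transcription factor known for driving respiratory chain genes, was present in 12, or 19.0%, against 11.5% of 10847 tested genes of any kind. By complex it was present in 5 of 32 genes of complex I, 3 of 7 of complex III, 0 of 11 of complex IV and 4 of 13 of complex V. The ETS core was found in 21, or 33.3%, against 32.5% of tested genes, and the hypoxia response core in 40, or 63.5%, against 63.6%. The YY1 motif, AAGATGG followed by CGGC, was found in 0 of the 63, against 0.507%, and the E-box in 37, or 58.7%, against 61.6%. These shares are descriptions and were not tested.

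Subunit genes were among the more abundant transcripts of these tumors. Their summed level was 25392, 24961, 24114 and 25374 TPM in NMN 1 to 4, against 27165, 26101, 24655 and 23665 TPM in Vehicle 1 to 4, or 2.37% to 2.72% of all TPM. The tested subunit genes had a median level of 226 TPM, against 18.9 TPM over all genes tested. Their level varied little between tumors, with a median coefficient of variation over the 8 tumors of 8.13%, against 15.95% over all genes tested, although the 2 sets also differ in level.

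**Figure D1:**
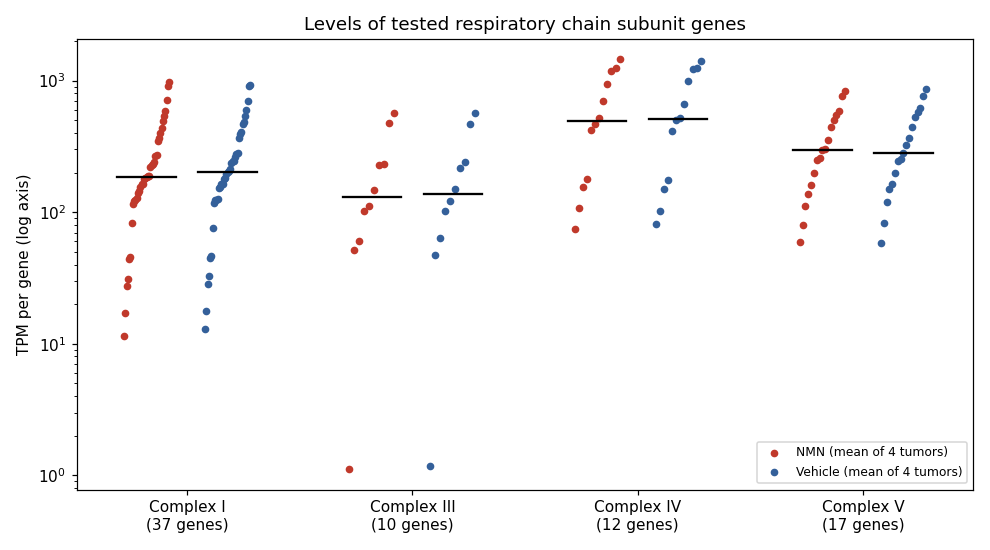
Mean TPM of each tested subunit gene on a log axis, by complex, with NMN tumors (red) left of Vehicle tumors (blue); a point is 1 gene, a black line the median gene. Complex IV genes stood highest and complex III genes lowest, and the lowest point is UQCRHL at about 1 TPM in both groups.

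Levels differed more between subunits of 1 complex than between tumors. In complex I the highest was NDUFB1, a small accessory subunit of the membrane arm, at a mean of 943 TPM over the 8 tumors, and the lowest NDUFV3, an accessory subunit beside the NADH site, at 12.2 TPM, a ratio of 77.1. In complex III UQCRH, the hinge protein, stood at 567 TPM, and UQCRHL, its paralog, at 1.14 TPM. In complex IV the range ran from COX6A1 at 1435 TPM to COX7B at 78.2 TPM, and in complex V from ATP5MC2 at 846 TPM to ATP5F1E, the epsilon subunit of F1, at 58.8 TPM. Across the 76 genes, higher levels went with shorter transcripts (Spearman's rho of -0.60 across genes, which share libraries and are not replicates): the longest annotated coding transcript had a median of 874.5 bases in the 10 highest genes and 4795.5 bases in the 10 lowest. How far this comes from the length correction in TPM was not tested.

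NMN and Vehicle tumors had close levels of subunit genes in all 4 complexes, and none of the 76 tested genes passed the test. With the moderated linear model of limma on log2(TPM + 1) across 13358 genes that reached 1 TPM in at least 4 tumors, 0 subunit genes passed at an adjusted p under 0.05 (Benjamini-Hochberg over all genes). Over all genes tested 0 passed as well, which is 0.0%. At an unadjusted p under 0.05 stood 2 of the 76, NDUFC1 and ATP5F1D, beside 6.94% of all genes, and in 1 of the 76, NDUFC1, the groups did not overlap, beside 3.05% of all genes. Both shares of the subunit genes lay below these backgrounds. Log2 fold changes of NMN over Vehicle ran from -0.26 to 0.13, with a median of -0.036 against 0.0040 over all genes tested.

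The intervals of these differences were narrow. For 75 of the 76 genes the 95% interval of the fold change lay within 1.5-fold in either direction, against 72.6% of all genes tested. The exception was UQCRHL, whose interval ran from -0.80 to 0.51 at a level near 1 TPM. The 2 sets also differ in level, and how far level sets the width of the intervals was not tested. Of the 76 genes, 52 averaged lower in NMN tumors, or 68.4%, against 49.0% of all genes tested.

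**Figure D2:**
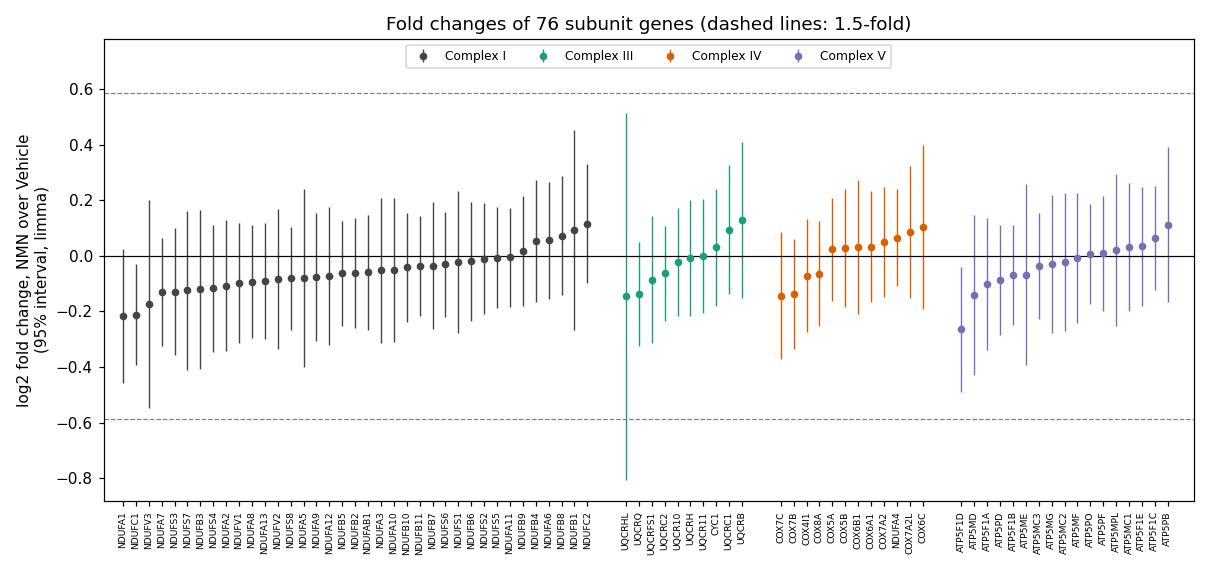
Log2 fold change of NMN over Vehicle for the 76 tested genes, ordered within each complex, with 95% intervals from limma; dashed lines mark 1.5-fold. The intervals of NDUFC1 and ATP5F1D do not reach 0, and UQCRHL has the widest interval, from -0.80 to 0.51.

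Summed by complex, the 37 complex I genes stood at 9821, 9421, 9370 and 9923 TPM in NMN 1 to 4, against 10581, 9984, 9567 and 9423 TPM in Vehicle 1 to 4. The 10 complex III genes stood at 1979, 1897, 1970.0 and 2067 TPM in NMN 1 to 4, against 1990, 2053, 2013 and 1864 TPM in Vehicle 1 to 4. In both complexes the groups overlapped, and the group means differed by -2.58% and -0.073%. The 16 complex IV genes stood at 7620, 7417, 7349 and 7460 TPM in NMN 1 to 4, against 8101, 7944, 7275 and 6654 TPM in Vehicle 1 to 4. The 19 complex V genes stood at 5973, 6226, 5425 and 5924 TPM in NMN 1 to 4, against 6494, 6120, 5801 and 5725 TPM in Vehicle 1 to 4. Their group means differed by -0.43% and -2.46%. The SD between tumors was larger with vehicle in all 4 complexes. It was 279 TPM with NMN and 519 TPM with vehicle in complex I, and 69.4 and 81.6 TPM in complex III. In complex IV it was 115 and 664 TPM, and in complex V 335 and 351 TPM. For complex IV Vehicle 1 was highest and Vehicle 4 lowest of the 8, and these differences in spread were not tested.

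**Figure D3:**
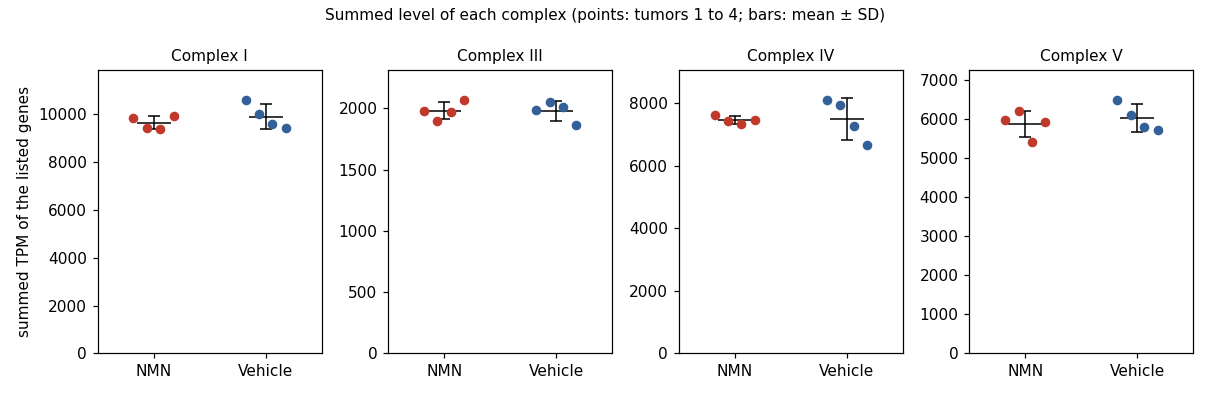
Summed TPM of the listed genes of each complex in each tumor (points, tumors 1 to 4 from left to right), NMN left of Vehicle, with mean ± SD (n = 4 each). The groups overlap in all 4 complexes, and the Vehicle tumors span a wider range than the NMN tumors in complexes I, III and IV, most of all in complex IV.

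In complex I 31 of 37 genes averaged lower in NMN than in Vehicle tumors. The median log2 fold change was -0.061, in a range from -0.22 to 0.12. By module the lower mean was found in 9 of 10 genes of the N module, which oxidizes NADH, in 6 of 6 of the Q module, which reduces coenzyme Q, in 8 of 9 of the proximal and 7 of 11 of the distal membrane arm, and in NDUFAB1, the acyl carrier found in both arms. Module medians were -0.091, -0.080, -0.052 and -0.036 in that order of the first 4. None of these genes passed the test. Leaving out 1 tumor, the count ran from 24 (without NMN 2) to 32 (without NMN 4) of 37 and the complex I median from -0.084 (without NMN 4) to -0.035 (without NMN 2).

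NDUFC1, a small accessory subunit of the proximal membrane arm (chromosome 4, 139266880 to 139302551, minus strand), stood at 174, 187, 193 and 180.2 TPM in NMN 1 to 4, against 219, 197, 226 and 208 TPM in Vehicle 1 to 4. All 4 NMN tumors lay below all 4 Vehicle tumors, by a gap of a few TPM between NMN 3 and Vehicle 2. The log2 fold change, -0.21 ± 0.08 (SE), had a 95% interval of -0.39 to -0.03 (limma, adjusted p = 0.618, unadjusted p = 0.0272). NDUFA1, another accessory subunit of that arm (chromosome X, 119871487 to 119876662, plus strand), stood at 274, 202, 197 and 231 TPM in NMN 1 to 4, against 274, 254, 249 and 267 TPM in Vehicle 1 to 4. NMN 2, NMN 3 and NMN 4 lay below every Vehicle tumor while NMN 1 equalled the highest within rounding. Its log2 fold change was -0.22 ± 0.11 (limma, adjusted p = 0.795).

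On the other side, NDUFC2, the partner of NDUFC1 in the membrane arm (chromosome 11, 78068304 to 78080219, minus strand), stood at 84.7, 86.3, 79.9 and 78.1 TPM in NMN 1 to 4, against 84.8, 70.05, 80.3 and 69.3 TPM in Vehicle 1 to 4. The groups overlapped, with a log2 fold change of 0.12 ± 0.10 (limma, adjusted p = 0.922). NDUFC2 shares exons with the read-through gene NDUFC2-KCTD14, listed at 11.9 to 22.7 TPM over the 8 tumors, so the split of reads between them is uncertain. NDUFB8, a subunit of the distal arm, stood at 127, 117, 109 and 138 TPM in NMN 1 to 4, against 114, 108, 124 and 120.0 TPM in Vehicle 1 to 4. Its log2 fold change was 0.07 ± 0.10 (limma, adjusted p = 0.958). With 1 tumor left out it ran from 0.016 to 0.13 for NDUFB8 (without NMN 4 and NMN 3 in turn) and from 0.072 to 0.17 for NDUFC2 (without Vehicle 4 and Vehicle 1 in turn).

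Core subunits of complex I hold the flavin and the iron-sulfur clusters. NDUFV1, which binds NADH and the flavin, stood at 222, 189, 231 and 236 TPM in NMN 1 to 4, against 224, 247, 252 and 214 TPM in Vehicle 1 to 4. NDUFS1, the largest subunit, stood at 45.8, 46.5, 38.1 and 51.6 TPM in NMN 1 to 4, against 42.3, 43.9, 51.4 and 46.8 TPM in Vehicle 1 to 4. Their log2 fold changes were -0.10 ± 0.10 and -0.02 ± 0.12, and in both the groups overlapped widely. NDUFV3, the lowest gene of the complex, stood at 9.91, 9.19, 11.4 and 15.5 TPM in NMN 1 to 4, against 11.03, 12.7, 13.1 and 14.9 TPM in Vehicle 1 to 4. NDUFB1, the highest, stood at 1038, 1148, 755 and 939 TPM in NMN 1 to 4, against 1228, 825, 852 and 759 TPM in Vehicle 1 to 4. These 2 genes also had the widest spread of the complex, with coefficients of variation of 18.5% and 19.0% over the 8 tumors.

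In complex III, which passes electrons from coenzyme Q to cytochrome c, 7 of 10 genes averaged lower in NMN tumors, and the median log2 fold change was -0.015. Among the 7, UQCR11 was nearly level at -0.00018, and its mean TPM was 101.5 with NMN and 101.4 with vehicle. Without Vehicle 1 the count was 4 and the median 0.0045, and without NMN 1 the count was 5 and the median 0.00079. UQCRQ, a small subunit (chromosome 5, 132866560 to 132868031, plus strand), stood at 111, 111, 104 and 117 TPM in NMN 1 to 4, against 124, 129, 122 and 113 TPM in Vehicle 1 to 4. NMN 4 lay above Vehicle 4, and the groups were otherwise apart, and the log2 fold change was -0.14 ± 0.09 (limma, adjusted p = 0.860). UQCRFS1, the Rieske iron-sulfur protein, stood at 57.1, 52.7, 59.8 and 70.1 TPM in NMN 1 to 4, against 62.1, 61.02, 65.8 and 64.5 TPM in Vehicle 1 to 4. NMN 1, NMN 2 and NMN 3 lay below and NMN 4 above every Vehicle tumor, with a log2 fold change of -0.09 ± 0.10, which was -0.16 without NMN 4 and -0.027 without NMN 2.

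UQCRB, which helps form the quinone site, stood at 47.5, 59.1, 48.7 and 51.8 TPM in NMN 1 to 4, against 54.4, 49.7, 48.8 and 37.3 TPM in Vehicle 1 to 4. UQCRC1, a core protein of the matrix side, stood at 245, 190.3, 245 and 248 TPM in NMN 1 to 4, against 218, 208, 238 and 203 TPM in Vehicle 1 to 4. NMN 2 stood apart from the other NMN tumors for UQCRC1 and lay below the Vehicle range, while the other 3 lay above it. Log2 fold changes were 0.13 ± 0.13 for UQCRB and 0.09 ± 0.11 for UQCRC1 (limma, adjusted p = 0.944 and 0.952). That of UQCRB was 0.020 without Vehicle 4 and that of UQCRC1 0.18 without NMN 2. UQCRC2, the other core protein, had the smallest spread of all 76 genes, with a coefficient of variation of 3.94%.

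The paralog UQCRHL stood at 0, 0.820, 1.71 and 1.93 TPM in NMN 1 to 4, against 1.43, 1.32, 1.00 and 0.920 TPM in Vehicle 1 to 4, where UQCRH stood at 548, 591, 529 and 592 TPM in NMN 1 to 4, against 584, 641, 514 and 538 TPM in Vehicle 1 to 4. The 2 genes are near-identical copies, so values of UQCRHL this far below UQCRH are uncertain. The groups overlapped for both.

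Complex IV, which reduces oxygen, was the only complex with a median log2 fold change above 0, at 0.030. Of its 12 tested genes 4 averaged lower in NMN tumors. Without Vehicle 4, which had the lowest sum of this complex, that count was 9 and the median -0.024, and after quantile normalization the median was -0.012. COX7C and COX7B, small membrane subunits, were the genes with the smallest p on the lower side. COX7C (chromosome 5, 86617904 to 86620962, plus strand) stood at 465, 520.5, 455 and 439.9 TPM in NMN 1 to 4, against 568, 575, 490.1 and 450.0 TPM in Vehicle 1 to 4. COX7B (chromosome X, 77899438 to 77907373, plus strand) stood at 69.6, 79.6, 71.1 and 77.8 TPM in NMN 1 to 4, against 83.2, 87.01, 77.05 and 80.5 TPM in Vehicle 1 to 4. The groups overlapped in both, with log2 fold changes of -0.14 ± 0.10 and -0.14 ± 0.09 (limma, adjusted p = 0.897 and 0.871).

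COX6C, a subunit of the membrane domain, had the widest spread of the main complex IV subunits, at 653, 774, 696 and 685 TPM in NMN 1 to 4, against 766, 761, 614 and 502 TPM in Vehicle 1 to 4. COX6B1, which faces cytochrome c, stood at 1297, 1245, 1245 and 1221 TPM in NMN 1 to 4, against 1398, 1345, 1184 and 1011 TPM in Vehicle 1 to 4. Apart from NMN 2 for COX6C, the NMN tumors lay within the Vehicle range for both genes. Vehicle 1 and Vehicle 2 stood high and Vehicle 4 stood lowest. NDUFA4 stood at 155, 156, 151 and 159.5 TPM in NMN 1 to 4, against 149, 158, 148 and 140.3 TPM in Vehicle 1 to 4, a log2 fold change of 0.07 ± 0.08 (limma, adjusted p = 0.957). COX7A2L, which joins complexes III and IV into supercomplexes, stood at 112, 118, 96.5 and 104 TPM in NMN 1 to 4, against 111, 85.1, 107 and 103 TPM in Vehicle 1 to 4, a log2 fold change of 0.09 ± 0.11 (limma, adjusted p = 0.957). Without Vehicle 2 the COX7A2L value was 0.0041, and without Vehicle 4 the NDUFA4 value was 0.038.

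The alternative isoforms of complex IV were at or near 0 in both groups. COX4I2, the isoform known from lung and from low oxygen, was listed at 0.380 TPM in NMN 1 and at 0 in the other 7 tumors, where COX4I1 stood at 926, 866, 969 and 1006 TPM in NMN 1 to 4, against 1022, 1082, 935 and 919 TPM in Vehicle 1 to 4. COX6A2 was listed at 1.10 TPM in NMN 4 and at 0 in the other 7, and COX6A1 at 1506, 1416, 1444 and 1429.7 TPM in NMN 1 to 4, against 1499, 1521, 1386 and 1276 TPM in Vehicle 1 to 4. COX8C, known from testis, was listed at 0.4 TPM in NMN 2, at 0.490 TPM in Vehicle 3 and at 0 in the other 6. Its partner COX8A stood at 1247, 1149, 1137 and 1210.3 TPM in NMN 1 to 4, against 1321, 1199.5, 1259 and 1179.6 TPM in Vehicle 1 to 4. COX6B2, also known from testis, stood at 0.940, 0.580, 1.59 and 1.63 TPM in NMN 1 to 4, against 1.24, 0.680, 0.730 and 0.590 TPM in Vehicle 1 to 4. NMN 3 and NMN 4 lay above every Vehicle tumor for COX6B2 and the groups overlapped (exact two-sided permutation test, p = 0.257, smallest possible p = 0.0286). For COX6A2 the same exact test gave p = 1.0. COX7A1 and COX7B2 are not analysed here.

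COX6A2 can be set beside markers of skeletal muscle, a tissue that uses it. The summed level of 20 muscle markers was 113, 89.5, 109 and 768 TPM in NMN 1 to 4, against 997, 808, 2954 and 549 TPM in Vehicle 1 to 4, and 4, 2, 3 and 0 of the markers were at 0 in NMN 1 to 4, against 0 in each Vehicle tumor. NMN 4, the only tumor with COX6A2 above 0 (1.1 TPM), had the highest sum of the NMN tumors. COX6A2 was listed at 0 in all 4 Vehicle tumors, where these markers stood at 549 TPM or more. How far reads of the mouse host enter either value is unknown, so this does not show that the isoform was absent. In complex I 16, 12, 15 and 24 of 37 genes lay above their 8-tumor mean in NMN 1 to 4, with median deviations of -0.027, -0.065, -0.034 and 0.049, against 28, 23, 20 and 14 genes and 0.094, 0.037, 0.022 and -0.033 in Vehicle 1 to 4. Markers of 2 further cell types were also lower in NMN 1 to 3: the 9 fibroblast markers summed to 121 to 237 TPM with NMN, against 192 to 292 TPM with vehicle, and 0 to 2 of them were at 0 in a tumor. The 6 smooth muscle and pericyte markers summed to 90.5 to 266 TPM with NMN, against 196 to 401 TPM with vehicle. Endothelial and myeloid markers were not lower in NMN 1 to 3. The 7 endothelial markers summed to 9.74 to 11.2 TPM with NMN, against 6.1 to 10.9 TPM with vehicle. The 7 myeloid markers summed to 68.6, 91.0, 84.4 and 50.1 TPM in NMN 1 to 4, against 53.0 to 76.4 TPM with vehicle. The part of these cell types in the complex I values was not tested. Adipocyte markers summed to 118, 218, 30.9 and 16.6 TPM in NMN 1 to 4, against 20.7, 10.6, 99.7 and 33.3 TPM in Vehicle 1 to 4.

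NDUFA4L2, a paralog of NDUFA4 outside the 82 genes and a known target of the hypoxia-inducible factor HIF-1, differed more between the groups than any subunit gene. It stood at 86.2, 120.2, 112 and 41.9 TPM in NMN 1 to 4, against 39.02, 19.4, 60.6 and 12.5 TPM in Vehicle 1 to 4. NMN 1, NMN 2 and NMN 3 lay above every Vehicle tumor and NMN 4 lay between Vehicle 1 and Vehicle 3. The log2 fold change, 1.56 ± 0.44, had a 95% interval of 0.59 to 2.53 (limma, adjusted p = 0.349). NDUFA4L2 made up 35.6% ± 10.5 of the pair NDUFA4L2 and NDUFA4 in NMN tumors and 17.2% ± 9.54 in Vehicle tumors (SD, n = 4 each). Of 9 paralog or isoform ratios compared as differences of log2(TPM + 1), this was the largest, at 1.49, and it did not pass (exact two-sided permutation test, p = 0.0857, and 0.771 after Benjamini-Hochberg adjustment over the 9). The other 8 differed by -0.14 to 0.24 between the groups, with exact permutation p-values from 0.257 to 0.943. In those of COX4I2, COX6A2, COX6B2, COX8C and UQCRHL this gene was at 1.93 TPM or less in every tumor. Ratios this close to the floor say little about isoform use.

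**Figure D4:**
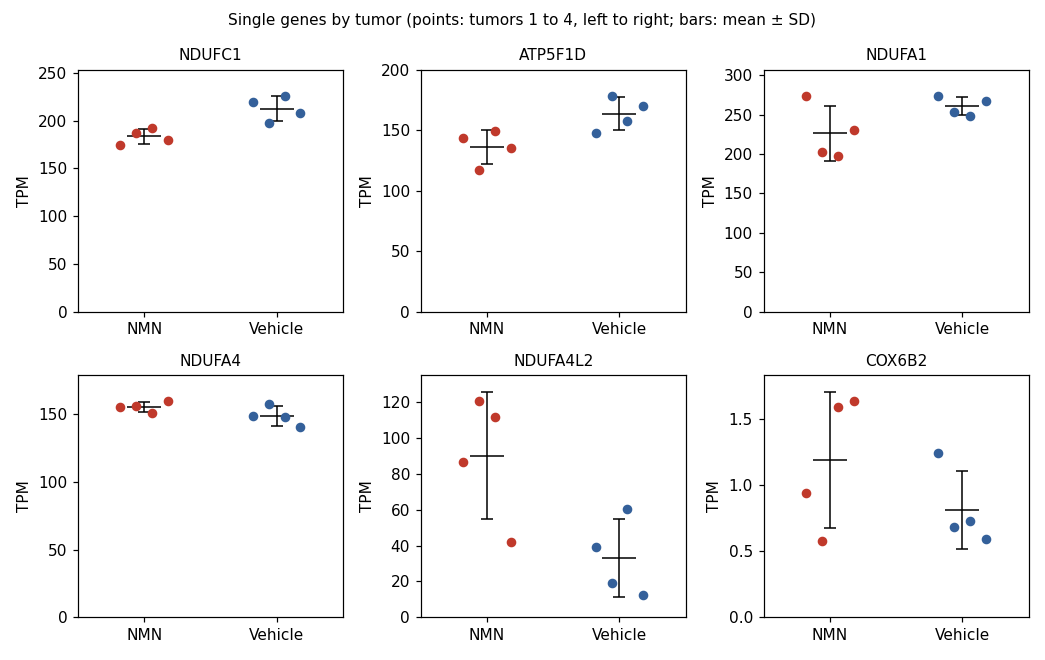
TPM of single genes in each tumor (points, tumors 1 to 4 from left to right), NMN (red) left of Vehicle (blue), with mean ± SD (n = 4 each). The groups do not overlap for NDUFC1, NDUFA4 is nearly level, and NDUFA4L2 is higher in NMN 1, NMN 2 and NMN 3 than in every Vehicle tumor.

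In complex V 10 of 17 tested genes averaged lower in NMN tumors, and the median log2 fold change was -0.023. Without NMN 3 the count was 7 and the median 0.0057, and without Vehicle 1 they were 7 and 0.026. Leaving out Vehicle 2 gave a count of 11, and each of the other 5 tumors a count of 12. ATP5F1D, the delta subunit of the F1 central stalk (chromosome 19, 1241746 to 1244826, plus strand), had the most negative fold change of the 76 genes. It stood at 144, 117, 149 and 135 TPM in NMN 1 to 4, against 148, 179, 158 and 170.1 TPM in Vehicle 1 to 4. NMN 3 and Vehicle 1 differed by about 1 TPM and kept the groups from separating. The log2 fold change, -0.26 ± 0.10, had a 95% interval of -0.49 to -0.04 (limma, adjusted p = 0.607, unadjusted p = 0.0252).

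The other F1 subunits had smaller fold changes, and whether they differ from that of ATP5F1D was not tested. ATP5F1B, the catalytic beta subunit, stood at 587, 547, 593 and 635 TPM in NMN 1 to 4, against 622, 640.4, 618 and 594 TPM in Vehicle 1 to 4. ATP5F1C stood at 286, 319.7, 281 and 292 TPM in NMN 1 to 4, against 288, 292, 290.1 and 256 TPM in Vehicle 1 to 4. ATP5F1E stood at 62.2, 53.5, 56.9 and 65.5 TPM in NMN 1 to 4, against 61.4, 57.5, 57.8 and 55.3 TPM in Vehicle 1 to 4. The groups overlapped in all 3, and their log2 fold changes were -0.07 ± 0.08, 0.06 ± 0.09 and 0.03 ± 0.10. Without Vehicle 4 that of ATP5F1C was 0.020. The beta subunit gene stood at 604 TPM over the 8 tumors and the alpha subunit gene ATP5F1A at 115 TPM, although F1 holds equal numbers of both proteins.

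The c ring, which turns with the flow of protons, is built from 1 mature protein encoded by 3 genes. ATP5MC2 supplied most of their transcripts, at 858, 913, 788 and 790.3 TPM in NMN 1 to 4, against 999.9, 881, 832 and 709 TPM in Vehicle 1 to 4. ATP5MC1 stood at 271, 239, 223 and 260.2 TPM in NMN 1 to 4, against 209, 238, 256 and 272 TPM in Vehicle 1 to 4. ATP5MC3 stood at 80.9, 80.8, 75.8 and 83.8 TPM in NMN 1 to 4, against 82.6, 86.4, 75.9 and 84.7 TPM in Vehicle 1 to 4. The order ATP5MC2, ATP5MC1, ATP5MC3 held in all 8 tumors.

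Of the stalk and membrane subunits, ATP5PB, the b subunit of the peripheral stalk, stood at 147, 169, 165 and 159.6 TPM in NMN 1 to 4, against 158, 114, 177 and 149 TPM in Vehicle 1 to 4. Vehicle 2 was the lowest tumor by a wide margin, and without it the log2 fold change of ATP5PB was -0.012 in place of 0.11 ± 0.13. ATP5MD, a small subunit at the dimer interface, stood at 307, 382, 242 and 266 TPM in NMN 1 to 4, against 346, 328, 299 and 330.1 TPM in Vehicle 1 to 4. NMN 2 lay above the Vehicle range and NMN 3 and NMN 4 below it, with a log2 fold change of -0.14 ± 0.13 (limma, adjusted p = 0.936), which was -0.27 without NMN 2 and -0.046 without NMN 3. ATP5ME, another small membrane subunit, stood at 497, 605, 444 and 458 TPM in NMN 1 to 4, against 635, 608, 442 and 434 TPM in Vehicle 1 to 4, and its coefficient of variation of 16.7% was the largest of the complex. The paralog ATP5MGL and the read-through gene ATP5MF-PTCD1 were at 0.510 TPM or less in every tumor and were not tested.

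Single tumors were high or low across many subunit genes. In Vehicle 1, 61 of the 76 genes lay above their 8-tumor mean and 23 had their highest value, whereas in Vehicle 4 22 lay above it and 16 had their lowest value. More genes had their lowest value in NMN 2 (21) and in NMN 3 (18). In the NMN tumors 32, 33, 25 and 50 genes lay above their mean in NMN 1 to 4, and in Vehicle 2 and Vehicle 3 the numbers were 49 and 38. The median deviation of the subunit genes from their 8-tumor mean was -0.025, -0.027, -0.041 and 0.049 on the log2(TPM + 1) scale in NMN 1 to 4, against 0.090, 0.039, 0.0015 and -0.048 in Vehicle 1 to 4. For all genes tested it was 0.0037, -0.11, -0.0029 and 0.13 in NMN 1 to 4, against 0.039, -0.11, 0.079 and -0.023 in Vehicle 1 to 4. In Vehicle 2 the subunit genes lay above their mean while the median gene lay below it.

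By complex, Vehicle 4 had the lowest value in 7 of 12 complex IV genes and in 3 of 37 complex I genes. NMN 2 had the lowest value in 12 of 37 complex I and 4 of 10 complex III genes, but in 1 of 12 complex IV genes. NMN 3 had the lowest value in 6 of 17 complex V genes. Compared with the Vehicle range, NMN 4 lay within it for 53 of the 76 genes, above it for 13 and below it for 10. These counts describe the 8 tumors and were not tested.

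**Figure D5:**
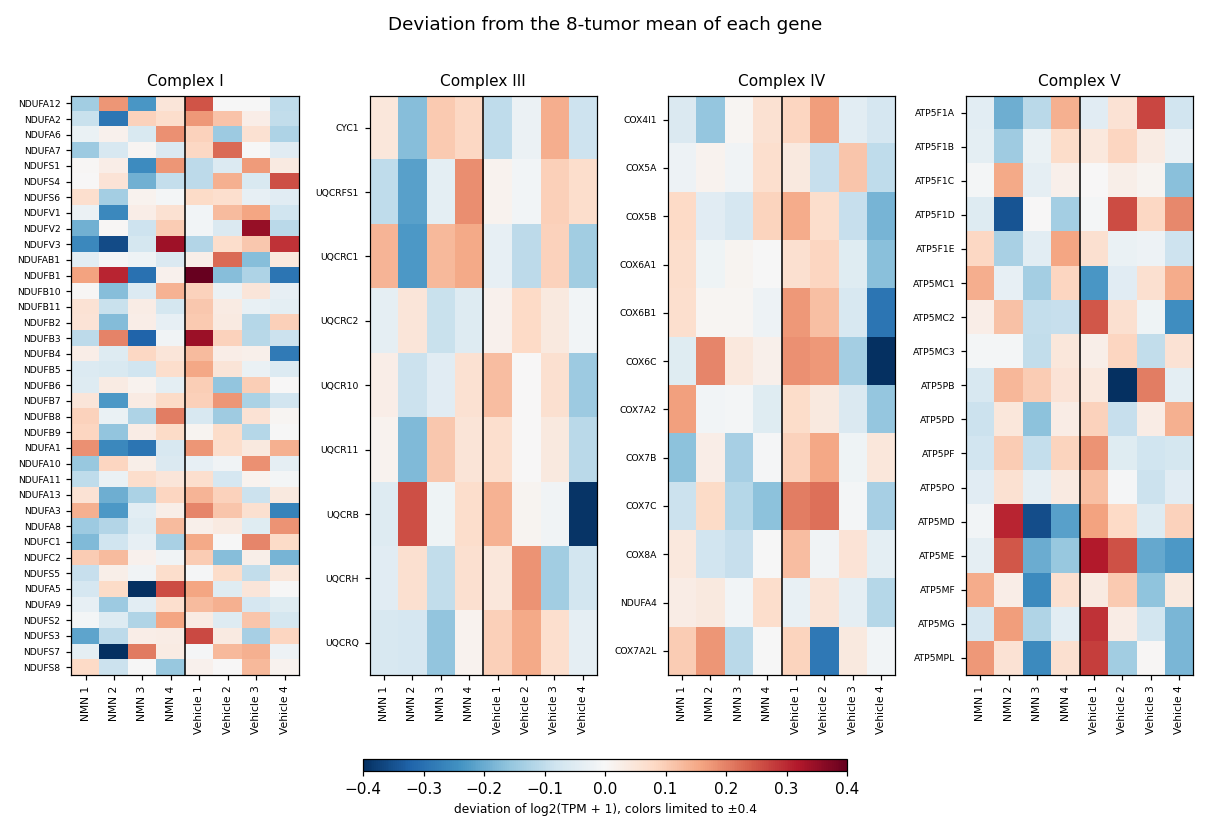
Deviation of log2(TPM + 1) of each tested gene from its own mean over the 8 tumors (red above, blue below, colors limited to ±0.4), NMN 1 to 4 left of the line and Vehicle 1 to 4 right of it; UQCRHL is left out because of its level near 1 TPM. Vehicle 1 is mostly red, and Vehicle 4 is blue across most of complex IV, where it was the lowest tumor in 7 of 12 genes.

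The other genes of the pathway gave no call either. Of 20 complex I assembly factors 16 averaged lower in NMN tumors, and their median log2 fold change was -0.065. Among the 16, TMEM186 was nearly level at -5.7e-05, and its mean TPM was 15.7 with NMN and 15.4 with vehicle. NDUFAF7, an arginine methyltransferase of assembly, had the smallest p, with a log2 fold change of 0.32 ± 0.15 (limma, adjusted p = 0.728). The 8 genes of complex II, which takes electrons from succinate, split 4 lower and 4 higher with a median of 0.0084. The membrane anchor gene SDHD had the smallest p, with a log2 fold change of -0.11 ± 0.11, which was -0.21 without NMN 4. Complex III assembly factors averaged lower in 4 of 6 tested, with BCS1L, which inserts the Rieske protein, at -0.19 ± 0.13. Complex V assembly factors averaged lower in 4 of 7, at a median of -0.0016 and TMEM242 at 0.25 ± 0.16. Of 15 genes for cytochrome c and coenzyme Q synthesis 11 averaged lower, at a median of -0.047, with COQ9, a coenzyme Q lipid carrier, at -0.25 ± 0.12.

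Among 29 complex IV assembly factors 17 averaged lower, at a median of -0.028, and 3 stood at an unadjusted p under 0.05, beside 6.94% of all genes. In 3 of the 29 the groups did not overlap, beside 3.05% of all genes: HIGD1A and COX19 were higher in every NMN than in every Vehicle tumor and CMC2 lower, with log2 fold changes of 0.11 ± 0.12 for COX19 and -0.16 ± 0.09 for CMC2. HIGD1A, a hypoxia-induced protein that binds complex IV, stood at 92.7, 106, 93.6 and 83.2 TPM in NMN 1 to 4, against 78.1, 80.99, 68.2 and 79.5 TPM in Vehicle 1 to 4. The lowest NMN tumor lay above the highest Vehicle tumor, with a log2 fold change of 0.29 ± 0.10 (limma, adjusted p = 0.539). COX20, a chaperone of the COX2 protein, and COA4 had log2 fold changes of 0.32 ± 0.13 and -0.28 ± 0.12 (limma, adjusted p = 0.624 and 0.663). A list of 8 paralogs and other genes around the chain outside the 82 (NDUFA4L2, NDUFAF6, CYCS, SCO2, ATP5IF1, LONP1, PDK1 and HIGD1A) split 5 lower and 3 higher at a median of -0.018. Of these, NDUFAF6, CYCS, SCO2, ATP5IF1 and HIGD1A also belong to the lists above, so the tallies are not separate. The 3 higher genes, NDUFA4L2, PDK1 and HIGD1A, stood at an unadjusted p under 0.05, beside 6.94% of all genes. SCO2, a copper chaperone of complex IV, had a log2 fold change of -0.37. Those of NDUFAF6, CYCS, ATP5IF1 and LONP1 were -0.07, -0.10, -0.0016 and -0.03. This list was chosen with earlier results of these data known, and its share was not tested. PDK1, a kinase that holds pyruvate back from oxidation in the mitochondrion, stood at 24.04, 31.9, 28.1 and 12.7 TPM in NMN 1 to 4, against 11.5, 16.2, 15.7 and 12.2 TPM in Vehicle 1 to 4 (limma, adjusted p = 0.519). NMN 4 lay within the Vehicle range for PDK1 and NDUFA4L2.

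As a check of the labels, 8 epithelial markers summed to 8453 to 10014 TPM with NMN, against 7557 to 11785 TPM with vehicle. ESR1, PGR and ERBB2, whose proteins are by definition low or absent in triple-negative cancer, summed to 84.3 to 126 TPM with NMN, against 81.9 to 135 TPM with vehicle, mostly from ERBB2. Depth is unknown, since each tumor's TPM sums to 1000000, and 16451 to 16662 genes were above 0 per tumor. Values are of human genes, and the part of mouse transcripts in them was not tested.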

How the data were processed

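RNA from 8 whole HCC1937 tumors was sequenced, and the authors deposited the values as TPM per gene in 1 table. Per the submitters' processing notes, the build was GRCh38.p13 and the tools included RSEM 1.2.8, HISAT2 2.1.0 and Bowtie2 2.2.5, whose roles are not stated. The handling of mouse reads and the strandedness are not given in the sources used here. TPM is relative: a change in abundant genes shifts all others, and no depth is kept.

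Genes with at least 1 TPM in at least 4 of 8 tumors were tested with limma 3.58.1 in R 4.3.3 (group as the only term, mean-variance trend, log2(TPM + 1), two-sided, Benjamini-Hochberg at 0.05). Fold changes are NMN over Vehicle and understate low genes. Genes counted as averaging lower have a log2 fold change below 0, which near 0 need not match the order of the mean TPM. Errors of fold changes are SE. Exact permutation tests used scipy 1.17.1. The model was tested on simulated data, with genes drawn independently and changes larger than any among the tested subunit genes. That test does not bear on how well small changes are found. Single values of 1 of the 9 ratios are not reported here, but it stays in the adjustment over them. Gene positions and transcript lengths are from GENCODE 29 on GRCh38, and lengths were found for 97.1% of tested genes. The members and lists were chosen with earlier results of these data known. Genes are named where they had 1 of the 2 smallest p in a direction of their complex, its highest or lowest level, an isoform pair, no overlap, or the smallest p of a list; others illustrate a role and were chosen after their values were seen. Alternatives were other pseudocounts, filters, scalings, variance models, weights, the replicate block and each tumor left out.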

Additional observations from a re-analysis of the deposited data

Results flagged for a closer look

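Among 40 named genes and the 4 complex sums, 88 groups of 4 tumors were examined for 1 value far from the other 3, where chance flags about 1 in 20, and 8 were found. UQCRC1 was at 190 TPM in NMN 2, against 245 to 248 TPM in the other NMN tumors. SDHD was at 278 TPM and BCS1L at 25.6 TPM in NMN 4, against 207 to 218 TPM and 19.4 to 20.2 TPM in the other NMN tumors. ATP5F1C was at 256 TPM in Vehicle 4, against 288 to 292 TPM in the other Vehicle tumors. The other 4 were single values above 0 where the rest of the group was listed at 0: COX4I2 at 0.38 TPM in NMN 1, COX6A2 at 1.1 TPM in NMN 4, and COX8C at 0.4 TPM in NMN 2 and 0.49 TPM in Vehicle 3.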

How the results depend on the processing

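No subunit gene passed the test under any of the 18 alternatives. Over all genes, 54 passed with array weights and, leaving out 1 tumor, 0 to 54 passed, with 54 without NMN 4 and 1 without Vehicle 3; the cause was not tested. With the replicate number as a block 2 genes passed, none of them a subunit. Same-numbered tumors did not pair, with correlations of their deviations from -0.12 to 0.026, and the block changed no other call. Leaving out 1 tumor, the count of genes with the lower mean in NMN tumors ran from 4 to 7 in complex III, from 4 to 9 in complex IV and from 7 to 12 in complex V, and the medians from -0.084 to -0.035 in complex I, from -0.055 to 0.0045 in complex III, from -0.024 to 0.062 in complex IV and from -0.037 to 0.026 in complex V. After quantile normalization the direction turned for COX6A1 (-0.049), COX6B1 (-0.033) and the ratio ATP5MC2/ATP5MC3 (-0.030); the cause was not tested. Leaving out 1 tumor turned the direction of log2 fold changes near 0, which ran from -0.013 to 0.083 for ATP5F1E, from -0.041 to 0.086 for ATP5MC1, from -0.11 to 0.056 for ATP5MC2, from -0.012 to 0.20 for ATP5PB, from -0.018 to 0.066 for COX6A1, from -0.061 to 0.095 for COX6B1, from -0.055 to 0.052 for UQCRH and from -0.34 to 0.18 for UQCRHL. Differences of log2 ratios ran from -0.088 to 0.089 for ATP5MC2/ATP5MC3, from -0.038 to 0.34 for COX6A2/COX6A1, from -0.067 to 0.090 for COX7A2L/COX7A2, from -0.095 to 0.18 for COX8C/COX8A and from -0.33 to 0.17 for UQCRHL/UQCRH. With the depth unknown, a gene listed at 0 may still be expressed.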
